A study of Mus musculus with 29 samples.

Results

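The transcripts described here are those of 5 genes of ketone body metabolism: Acat1, Bdh1, Oxct1, Slc16a1 and Slc16a7. They were taken by symbol from a count table of 24770 gene symbols, and all 5 were found. The table comes from RNA-seq of brown adipose tissue (BAT) and of gastrocnemius skeletal muscle (SkM) of male wild-type C57BL/6J mice, which were young adults when weeks of calorie restriction (CR), treadmill exercise training (EX) or both (CREX) began. Control mice were sedentary and ate chow freely, CR mice were sedentary on a ration that was lowered step by step, EX mice ran and ate freely, and CREX mice ran on the lowered ration. Mice of all groups, controls included, were fasted for some hours before the tissues were taken, and the runners were killed a day after their last run. BAT had 3 control, 4 CR, 4 EX and 4 CREX libraries, and SkM had 4 control, 3 CR, 4 EX and 3 CREX libraries, 29 in all. The labels number the libraries of a group but do not tie a number to a mouse, so p-values measure the spread between these libraries.

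Ketone bodies, acetoacetate and 3-hydroxybutyrate, are made mainly by liver mitochondria from acetyl-CoA when carbohydrate is short, and are burnt by heart, brain, kidney, muscle and other tissues. In synthesis, ACAT1 joins acetyl-CoA units to acetoacetyl-CoA, from which acetoacetate is made, and BDH1 reduces acetoacetate to 3-hydroxybutyrate. In use, BDH1 oxidises 3-hydroxybutyrate back, OXCT1 (also called SCOT) activates acetoacetate with CoA from succinyl-CoA, and ACAT1 splits the product into acetyl-CoA. Both ketone bodies cross membranes with lactate and pyruvate through monocarboxylate transporters, of which Slc16a1 encodes MCT1 and Slc16a7 encodes MCT2.

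The BAT libraries held 21047242 to 24919377 assigned counts and the SkM libraries 23050918 to 23425284. Levels are given as CPM, counts scaled to a common library total, here with TMM factors within a tissue, and marker sums as CPM without those factors. The 10 brown adipocyte markers, among them Ucp1, Cidea and Adipoq, summed to 14551 to 16479 CPM in control, 13757 to 15258 in EX, 12676 to 14104 in CR and 11098 to 13234 in CREX libraries of BAT, and to 83.2 to 231.7 CPM in SkM. Ucp1 alone ran from 3897 to 4798 CPM in control, 3060 to 4232 in EX, 1848 to 2552 in CR and 1380 to 2290.3 in CREX. Ucp1 was thus lower in the restricted BAT libraries, where Oxct1 and Slc16a1 were lower too. Not every marker of the list fell. Adrb3 and Plin1 were lower there as well, Adipoq overlapped, and Elovl3 stood higher in CR (69.4 to 108 CPM) than in control (23.9 to 69.0). The part of these markers in the Oxct1 and Slc16a1 values was not tested. The 10 skeletal muscle markers, among them Acta1, Ckm and Myh4, summed to 123445 to 145454 CPM in the freely fed SkM libraries and to 159986 to 204015 CPM in the restricted ones. In BAT the same muscle list ran from 3.61 to 6832 CPM, with all 10 genes detected in every BAT library, and stood highest in CREX replicate 3, EX replicate 3 and EX replicate 2. In SkM, 9 slow fibre markers, among them Myh7, Tnni1 and Myl2, summed to 1133 to 2460 CPM in control, 1844 to 2505 CPM in CR, 389 to 2197 CPM in EX and 60.2 to 715 CPM in CREX, so that CREX replicates 2 (118 CPM) and 3 (60.2 CPM) stood below all other SkM libraries. Hepatocyte markers (10 genes, among them Alb and Apoa1) summed to 43.2, 277 and 280.4 CPM in the SkM CR libraries, with all 10 genes detected. They summed to 56.1 CPM in SkM CREX replicate 1, again with all 10 detected, and to 0.646 and 0.988 CPM in CREX replicates 2 and 3. In control SkM they summed to 0.516 to 6.70 CPM and in EX to 0.216 to 2.59 CPM, and their part in the SkM values was not tested. Fits without the BAT libraries rich in muscle or without CREX replicates 2 and 3 of SkM are given beside the results that turn on them, and the latter leave 1 SkM CREX library, whose spread is taken from the other groups.

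Compared between genes as CPM per kilobase of exon in control mice, BAT and SkM had different orders. In BAT the level fell from Acat1 (130.6 CPM per kb, mean of 3 libraries) through Oxct1 (43.4) and Slc16a1 (35.4) to Slc16a7 (1.46) and Bdh1 (0.00962). In SkM it fell from Oxct1 (102 CPM per kb, mean of 4 libraries) through Acat1 (69.3) and Bdh1 (24.6) to Slc16a1 (6.87) and Slc16a7 (0.0740). All 5 genes passed the test between control BAT and control SkM (edgeR's quasi-likelihood test, Benjamini-Hochberg adjusted p under 0.05 over all genes tested, the call used throughout), as did 74.9% of all genes. BAT was higher for Acat1, Slc16a1 and Slc16a7, with log2 fold changes of 0.91 ± 0.11 (SE), 2.36 ± 0.12 and 4.30 ± 0.16, and SkM was higher for Oxct1, with -1.23 ± 0.12. Bdh1 had 2, 1 and 0 counts in the control BAT libraries, and its mean in control SkM was at least 868-fold higher than the level that 3 counts would give in BAT. Differences between these tissues in bulk RNA cannot tell apart fewer cells of a type and less RNA per cell.

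**Figure D1:**
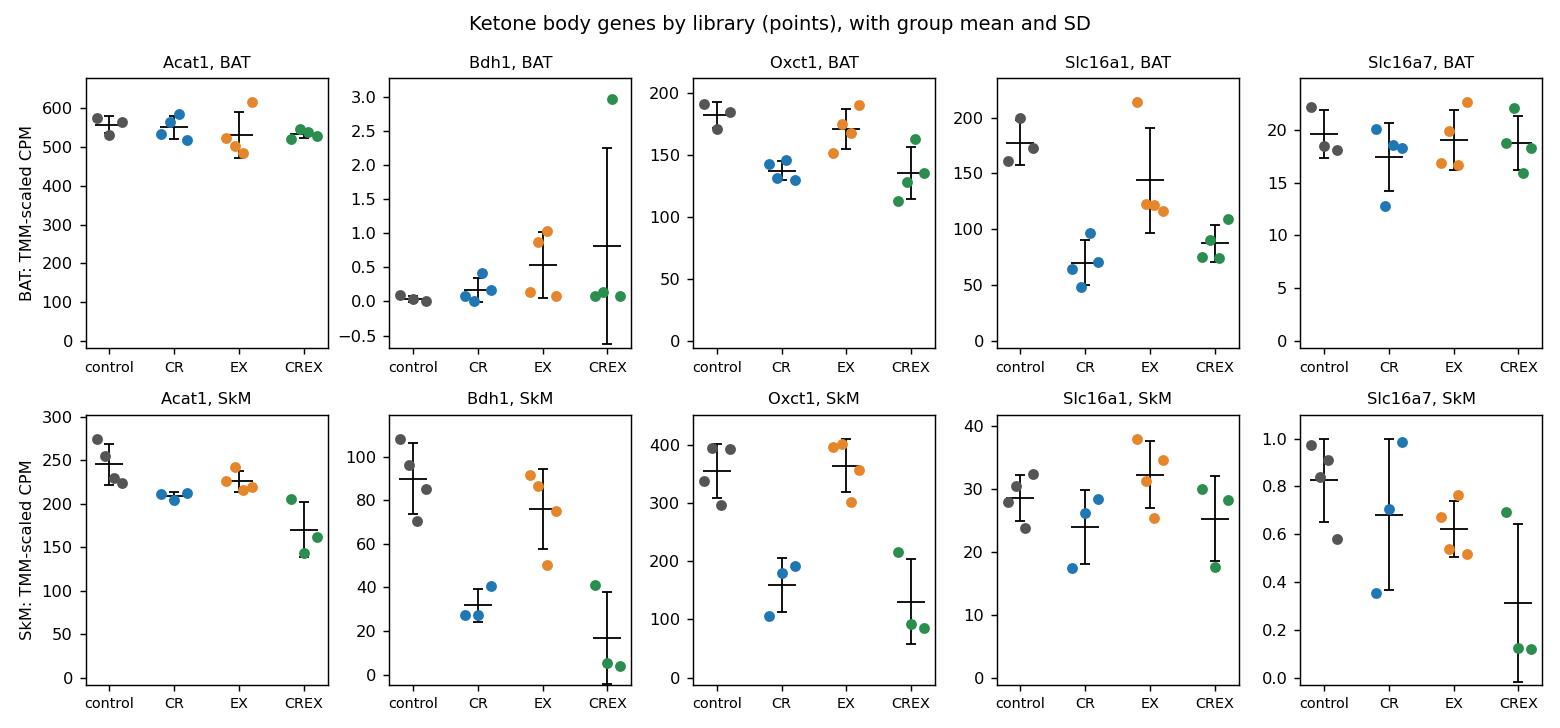
TMM-scaled CPM of the 5 genes in every library of BAT (upper row) and SkM (lower row), by group, with points for libraries and black bars for the group mean and SD; each panel has its own axis. Oxct1 and Bdh1 in SkM and Slc16a1 in BAT stood lower in every CR and CREX library than in every control and EX library, and Bdh1 in BAT stayed under 3 CPM.

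Acat1, the thiolase that stands at the entry of synthesis and at the end of use, lies on the minus strand of chromosome 9 (chr9:53580522-53610350, GRCm38). In BAT it was at 574, 532 and 566 CPM in control, 533, 565, 587 and 519 in CR, 523, 502, 484 and 616 in EX, and 522, 547, 539 and 528 in CREX. These groups overlapped throughout, and no BAT comparison passed the test, with log2 fold changes of -0.015 ± 0.066 for CR against control and 0.0070 ± 0.083 for CREX against EX. In SkM it was at 274, 254, 229 and 223 CPM in control, 211, 204 and 213 in CR, 226, 242, 215 and 219 in EX, and 205, 143 and 162 in CREX. Every restricted SkM library lay below every freely fed one, by a small margin between the highest restricted (213 CPM) and the lowest freely fed (215 CPM). The main effect of CR over all 4 SkM groups passed the test at a log2 fold change of -0.32 ± 0.088 (adjusted p = 0.0115), whereas CR against control (-0.22 ± 0.11, adjusted p = 0.226) and CREX against EX (-0.41 ± 0.14, adjusted p = 0.0771) did not. Without CREX replicate 1, CREX against EX passed for Acat1 at -0.59 (adjusted p = 0.00166). Without CREX replicates 2 and 3 the main effect of CR on Acat1 was -0.19 (adjusted p = 0.164), and with the slow fibre score as a covariate -0.27 (adjusted p = 0.0552).

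Bdh1, the dehydrogenase that interconverts acetoacetate and 3-hydroxybutyrate at the inner mitochondrial membrane, lies on the plus strand of chromosome 16 (chr16:31422297-31458901, GRCm38). Its fold change for CR against control in SkM was the largest of the 5 genes, and the 250 bases before its RefSeq start (chr16:31422047-31422296, plus strand, GRCm38.p6) are shown because it is the member most restricted to one of the tissues. The sequence was searched on both strands for TNAAGGTCA (the extended site of oestrogen-related receptors), the DR1 element of PPARs (a direct repeat of AGGTCA, letters it shares with the former), CACGTG (E-box), GGGCGG (GC box), CCAAT and the NRF1 element, and held none of them, so it has no capitals.
Bdh1: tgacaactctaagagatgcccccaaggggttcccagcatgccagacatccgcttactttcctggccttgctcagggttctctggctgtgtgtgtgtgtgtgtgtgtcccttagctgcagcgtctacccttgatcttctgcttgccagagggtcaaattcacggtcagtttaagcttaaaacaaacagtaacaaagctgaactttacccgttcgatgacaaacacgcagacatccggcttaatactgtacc
Its GC content was 49.6%, against a median of 52.4% over 32851 such windows. A second RefSeq start of Bdh1 has a window (chr16:31428503-31428752) of 60.8% GC that held none of these letters either. The quantification command in the study's methods sets no strand option, and without strand reads of Bdh1 and of its antisense neighbour Gm15743 (at most 30 counts in any library), and of Oxct1 and BC037032 (at most 35 counts), cannot be told apart.

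In SkM, Bdh1 was at 108, 96.1, 70.3 and 85.2 CPM in control and at 27.6, 27.5 and 40.6 CPM in CR. All 3 CR libraries lay far below all 4 controls, and Bdh1 fell with a log2 fold change of -1.49 ± 0.19, which is 2.80-fold lower (adjusted p = 0.00101). Bdh1 was 1 of the 2 members of 5 that fell in this comparison, with Oxct1, against 14.0% of all genes called in either direction and 7.67% called lower. In 1 fit over all 4 SkM groups, whose spread includes the CREX libraries, the same contrast was -1.496 with an adjusted p of 0.1504, while leaving out any single CR or control library or adding the slow fibre score kept the call.

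In trained mice, SkM Bdh1 was at 91.6, 86.7, 50.5 and 75.1 CPM in EX and at 41.0, 5.47 and 3.80 CPM in CREX. The groups did not overlap, but CREX replicate 1 stood far above the other two CREX libraries, and the log2 fold change of -2.17 ± 0.92 did not pass the test (adjusted p = 0.168). Without CREX replicate 1 it was -4.06 (adjusted p = 3.6e-04). Without CREX replicates 2 and 3, which leaves 1 CREX library, it was -0.87, with no call read from it. The main effect of CR passed at -1.84 ± 0.46 (adjusted p = 0.0103), at -1.20 without CREX replicates 2 and 3 (adjusted p = 0.00157) and at -1.70 with the slow fibre score as a covariate (adjusted p = 0.0163). CREX replicates 2 and 3 are the libraries lowest in slow fibre transcripts, and the part of fibre type in the CREX values was not tested.

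In BAT, Bdh1 was close to the detection limit, with 2, 1 and 0 counts in control, 2, 0, 10 and 4 in CR, 3, 19, 25 and 2 in EX, and 2, 3, 72 and 2 in CREX. It did not pass the filter on low counts in the comparisons of pairs of groups, and in 1 fit over all BAT groups neither CR (1.26 ± 1.18, adjusted p = 0.446) nor EX (2.87 ± 1.11, adjusted p = 0.355) passed the test. The 4 libraries with the most Bdh1 counts, CREX replicate 3 (72), EX replicate 3 (25), EX replicate 2 (19) and CR replicate 3 (10), had skeletal muscle sums of 6832, 4608, 4452 and 1589.7 CPM. The first 3 of those sums were above that of every other BAT library, and CREX replicate 4, at 2384 CPM, had 2 counts of Bdh1. Hepatocyte markers in BAT summed highest in CR replicate 3 (76.2 CPM), EX replicate 2 (74.7) and CREX replicate 4 (45.0). They summed to 1.14 CPM in CREX replicate 3 and 1.16 in EX replicate 3. The part of hepatocyte transcripts in these Bdh1 counts was not tested. With the muscle score as a covariate, the EX main effect on Bdh1 was 0.094 (adjusted p = 0.998). Muscle sums ran from 3.61 to 771 CPM in control, 20.7 to 1590 in CR, 7.30 to 4608 in EX and 1155 to 6832 in CREX. Training and muscle score therefore cannot be fully told apart in that fit, and the part of muscle RNA in the Bdh1 counts was not tested.

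**Figure D2:**
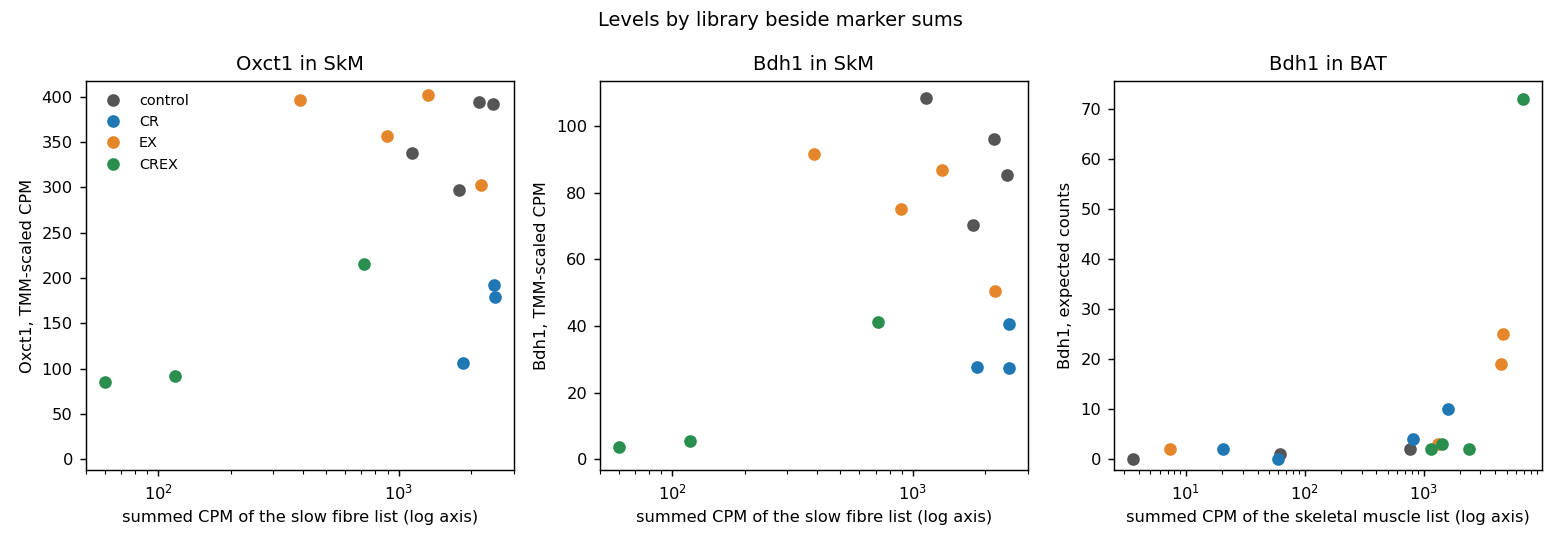
Level of Oxct1 (left) and Bdh1 (middle) in each SkM library against the summed CPM of 9 slow fibre markers, and expected counts of Bdh1 in each BAT library against the summed CPM of 10 skeletal muscle markers (right). The x axes are logarithmic and colours mark the groups. CREX replicates 2 and 3 sit at the lower left of both SkM panels, the CR libraries are low at slow fibre sums of 1844 CPM or more, and the BAT library with 72 counts has the highest muscle sum.

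Oxct1 encodes the CoA transferase that commits acetoacetate to oxidation and is all but lacking in hepatocytes. It lies on the plus strand of chromosome 15 (chr15:4026428-4155344, GRCm38). It was the member that fell in both tissues, and the 250 bases before its RefSeq start (chr15:4026178-4026427, GRCm38.p6) are shown for comparison with those of Bdh1 and Slc16a1. They held none of the letters searched.
Oxct1: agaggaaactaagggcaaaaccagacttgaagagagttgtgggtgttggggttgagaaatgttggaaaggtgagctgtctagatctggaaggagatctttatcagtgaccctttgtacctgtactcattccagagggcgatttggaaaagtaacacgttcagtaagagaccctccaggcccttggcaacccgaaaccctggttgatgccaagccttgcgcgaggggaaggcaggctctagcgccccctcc
The GC content of this window was 52.0%.

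In SkM, Oxct1 was at 338, 394, 297 and 392 CPM in control and at 106.5, 179 and 192 CPM in CR. Each CR library was below each control, and Oxct1 fell by 1.15 ± 0.20 on the log2 scale, 2.22-fold lower (adjusted p = 0.00512), with the call kept under every alternative run. In trained mice it was at 396, 401, 302 and 357 CPM in EX and at 215, 91.6 and 85.5 CPM in CREX. These groups did not overlap either, and Oxct1 was the 1 of 5 members that passed CREX against EX, at -1.48 ± 0.35 (adjusted p = 0.0328), against 13.6% of all genes in either direction and 6.96% called lower. That call did not survive leaving out CREX replicate 2 or 3 or any EX replicate (adjusted p from 0.0613 to 0.0968), the slow fibre score as a covariate (-1.13, adjusted p = 0.207) or dropping the filter on low counts (adjusted p = 0.0939). Without CREX replicate 1 it was -2.07 (adjusted p = 3.5e-06). Without both CREX replicates 2 and 3 the value was -0.74, with the 1 CREX library left assumed to vary like the EX libraries, so no call is read from it.

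The main effect of CR on SkM Oxct1 was -1.32 ± 0.21 (adjusted p = 3.8e-04) and passed under every alternative run, between -1.60 and -0.96. The order of the group means was EX (364 ± 45.7 CPM, SD, n = 4), control (355 ± 46.9, n = 4), CR (159 ± 46.2, n = 3) and CREX (131 ± 73.0, n = 3). EX and control did not differ beyond their spread, and neither did CR and CREX.

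In BAT, Oxct1 was at 191, 171 and 185 CPM in control and at 143, 132, 146 and 129.8 CPM in CR. All 4 CR libraries were below all 3 controls, and Oxct1 fell by 0.40 ± 0.071 on the log2 scale, a fold of 1.32 (adjusted p = 0.00341). Oxct1 and Slc16a1 were the 2 of 4 tested members that passed CR against control in BAT, both lower, against 20.9% of all genes in either direction and 10.9% called lower. With a fold above 1.5 required as well, Slc16a1 alone was called, against 10.7% of all genes. In trained mice Oxct1 was at 152, 175, 168 and 190.1 CPM in EX and at 113, 128, 163 and 136 CPM in CREX. One CREX library, replicate 3, lay within the EX range. No member passed edgeR's test for CREX against EX, in which 8.01% of all genes passed. An unadjusted p under 0.05 was found for 2 members and for 3392 of 13251 genes. For Oxct1 the log2 fold change was -0.34 ± 0.11 (adjusted p = 0.0925). Without CREX replicate 3, which had the highest muscle sum of any BAT library and whose Oxct1 level was the highest of its group, it was -0.44 (adjusted p = 0.0333). No member passed with the skeletal muscle score as a covariate, or without the BAT libraries richest in muscle transcripts. Over 16 alternatives, Oxct1 was called in 3. The part of muscle RNA in the Oxct1 value of CREX replicate 3 was not tested.

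The main effect of CR on BAT Oxct1 was -0.37 ± 0.071 (adjusted p = 0.00102), and -0.42 without the 3 BAT libraries richest in muscle transcripts (adjusted p = 7.6e-04). The BAT group means ran from control (182 ± 10.2 CPM, SD, n = 3) and EX (171 ± 15.96, n = 4) to CR (137 ± 7.93, n = 4) and CREX (135 ± 20.995, n = 4). Neither the first pair nor the last pair differed beyond its spread. The fall with CR was larger in SkM than in BAT by 0.75 ± 0.23 on the log2 scale, a difference that did not pass its own test (adjusted p = 0.0597).

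Slc16a1 encodes MCT1, a proton-coupled carrier of lactate, pyruvate and ketone bodies found in oxidative fibres, endothelium and brown adipocytes. It lies on the plus strand of chromosome 3 (chr3:104638664-104658462, GRCm38). Its 250 bases before the RefSeq start (chr3:104638414-104638663, GRCm38.p6) differed from those of Bdh1 and Oxct1 in base composition, at 76.4% GC, and in holding 2 of the motifs searched. Capitals mark an E-box, CACGTG, 200 to 195 bases before the start, and a GC box, GGGCGG, 85 to 80 bases before it.
Slc16a1: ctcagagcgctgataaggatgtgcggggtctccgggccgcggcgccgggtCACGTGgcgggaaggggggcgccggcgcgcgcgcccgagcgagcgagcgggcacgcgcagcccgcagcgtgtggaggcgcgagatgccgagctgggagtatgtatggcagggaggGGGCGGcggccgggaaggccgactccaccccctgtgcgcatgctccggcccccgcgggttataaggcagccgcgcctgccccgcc
Of all 32851 windows of this length, 6.02% held an E-box and 32.7% a GC box. The other motifs were found in 1.14% (TNAAGGTCA), 0.0335% (DR1), 33.8% (CCAAT) and 0.782% (NRF1) of windows.

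In BAT, Slc16a1 was at 161, 199 and 173 CPM in control and at 64.7, 48.6, 96.3 and 71.0 CPM in CR. The CR libraries were all below the controls, and Slc16a1 fell by 1.34 ± 0.22 on the log2 scale, 2.52-fold lower (adjusted p = 0.00824). With a replicate block, which pairs libraries by their number alone, it was -1.39 (adjusted p = 0.0588), and the call was kept under the other alternatives run. In trained mice Slc16a1 was at 214, 123, 122 and 117 CPM in EX and at 75.0, 90.4, 74.6 and 109 CPM in CREX. These groups did not overlap, but the log2 fold change of -0.72 ± 0.22 did not pass (adjusted p = 0.0919), and without EX replicate 1, the highest BAT library, it was -0.45. DESeq2 called Oxct1 (adjusted p = 0.0465) and Slc16a1 (adjusted p = 0.00670) in this comparison.

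The main effect of CR on BAT Slc16a1 was -1.03 ± 0.17 (adjusted p = 6.8e-04), and it ran between -1.12 and -0.90 under all alternatives, each of which kept the call. The order of the BAT means was control (178 ± 19.8 CPM, SD, n = 3), EX (144 ± 46.7, n = 4), CREX (87.3 ± 16.4, n = 4) and CR (70.2 ± 19.8, n = 4). Control and EX did not differ beyond their spread, with -0.30 ± 0.23 for EX against control, and neither did CREX and CR, with 0.31 ± 0.22. Endothelial markers, 10 genes of cells that carry MCT1 as well, summed to 414 to 459 CPM in control, 328 to 434 in EX, 287 to 371 in CR and 295 to 346 in CREX libraries of BAT, and their part in the Slc16a1 values was not tested.

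In SkM, Slc16a1 lay between 23.8 and 37.9 CPM in freely fed libraries and between 17.4 and 29.9 CPM in restricted ones. The ranges overlapped, and neither CR against control (-0.24 ± 0.17, adjusted p = 0.373), CREX against EX (-0.36 ± 0.20, adjusted p = 0.257) nor the main effect of CR (-0.30 ± 0.14, adjusted p = 0.111) passed the test. The fall with CR in sedentary mice was larger in BAT than in SkM by 1.08 ± 0.30 on the log2 scale (adjusted p = 0.0450), the 1 of 5 members called in a test that called 7.58% of all genes. This call held in 2 of the 14 fits that left out a single library (adjusted p from 0.00638 to 0.112) and was lost with the replicate block (adjusted p = 0.0730) or no filter on low counts (adjusted p = 0.108).

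Slc16a7, which encodes the high-affinity transporter MCT2, lies on the minus strand of chromosome 10 (chr10:125219270-125389586, GRCm38). In BAT it ran from 12.8 to 22.6 CPM over all 15 libraries, with group means of 19.6 ± 2.26 (SD, n = 3) in control, 19.0 ± 2.82 (n = 4) in EX, 18.8 ± 2.56 (n = 4) in CREX and 17.4 ± 3.20 (n = 4) in CR. No neighbours in this order differed beyond their spread, and the CR main effect was -0.093 ± 0.10. In SkM it had 3 to 26 counts, or 0.121 to 0.987 CPM, and no comparison passed the test, the CR main effect being -0.62 ± 0.35 (adjusted p = 0.177). CREX replicates 2 and 3 had 3 counts each, the lowest of all SkM libraries, and the values turned on them. Without CREX replicate 1, Slc16a7 was at -2.32 for CREX against EX (adjusted p = 0.00675) and at -1.28 for the CR main effect (adjusted p = 0.00514), and without CREX replicates 2 and 3 at 0.17 and -0.054.

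**Figure D3:**
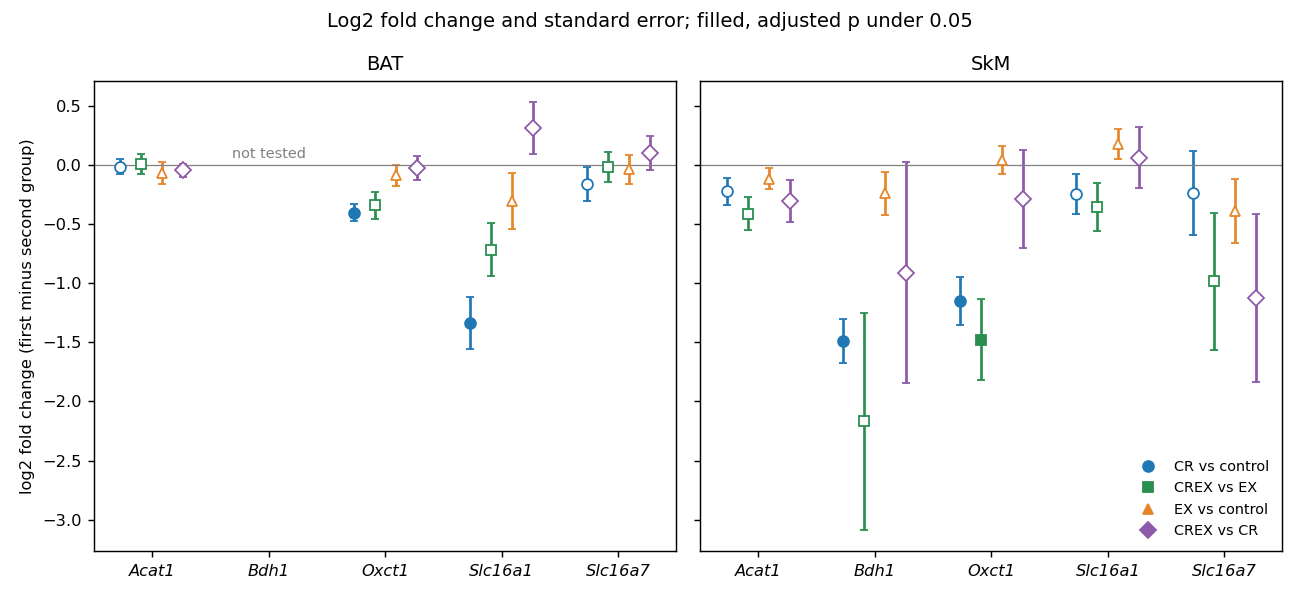
Log2 fold change (first minus second group) with its standard error for the 5 genes in 4 comparisons of each tissue; filled symbols passed an adjusted p under 0.05 and open symbols did not. Filled symbols are Oxct1 and Slc16a1 for CR against control in BAT, and Bdh1 and Oxct1 for CR against control and Oxct1 for CREX against EX in SkM, all below 0.

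Across the 4 tested members the median log2 fold change of CR against control in BAT was -0.28, beside 0.0045 over all genes tested, and in SkM, over 5 members, -0.24 beside 0.0050. For CREX against EX the medians were -0.18 in BAT and -0.98 in SkM, beside -0.0020 and 0.0026 over all genes. The SkM median is the value of Slc16a7, which did not pass and had 3 counts in each of CREX replicates 2 and 3. For the main effect of CR, 2 of 5 members fell in BAT and 3 of 5 in SkM, none rose, and 33.4% and 33.5% of all genes passed, 17.5% and 17.0% lower. With a fold above 1.5 required as well, Slc16a1 alone was called in BAT, against 11.8% of all genes. For the difference between the tissues in CREX against EX, 0 of 5 members passed edgeR's test (5.58% of all genes) and 1 passed by DESeq2. At an unadjusted p under 0.05 there were 2 members, beside 3199 of 14410 genes. CR against control and EX against control share their control libraries, and CREX against EX and CREX against CR share the CREX libraries.

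No member passed edgeR's test for training within a diet. For EX against control, 0 of 4 tested members in BAT and 0 of 5 in SkM passed, 0 also at an unadjusted p under 0.05 and 0 by DESeq2, in comparisons that called 0% and 0.093% of all genes. For CREX against CR the counts were again 0 of 4 and 0 of 5, 0 at an unadjusted p and 0 by DESeq2, with 0.00763% and 0% of all genes called. The largest of these differences were in SkM, at -0.91 ± 0.93 for Bdh1 and -1.13 ± 0.71 for Slc16a7 in CREX against CR. For the main effect of EX, 0 of 5 members passed in each tissue (0.0215% of all genes in BAT and 0.0294% in SkM), and 0 by DESeq2. At an unadjusted p under 0.05 there were 1 (Bdh1) in BAT and 2 (Acat1 and Slc16a7) in SkM. Of all genes, 1527 of 13922 in BAT and 921 of 13610 in SkM reached that level. The interaction of CR and EX was called for 0 of 5 members in BAT and 0 of 5 in SkM, 0 at an unadjusted p and 0 by DESeq2, and for 0% of all genes. Without SkM CREX replicate 1, Bdh1 passed for CREX against CR (-2.82, adjusted p = 0.00734), for the EX main effect (-1.51, adjusted p = 3.8e-04) and for the interaction (-2.54, adjusted p = 0.00278). In those fits both remaining CREX libraries were the ones poorest in slow fibre transcripts. Without these instead, which leaves 1 CREX library, the same values were 0.37 for CREX against CR, 0.060 for the EX main effect and 0.61 for the interaction. With the slow fibre score as a covariate they were 1.98, 0.20 and -0.18, none of which passed. That score ran from 7.01 to 7.52 in CR and from 2.07 to 5.65 in CREX. Group and score therefore cannot be told apart in the CREX against CR fit.

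Of 26 other genes of the pathway, listed by role, 25 were in the count table, and Slc5a12 was not analysed here. For CR against control in BAT, 3 of 17 tested rose and 2 fell, and in SkM 1 of 15 rose and 3 fell, beside 20.9% and 14.0% of all genes called in either direction. For the main effect of CR, 4 rose and 7 fell of 17 in BAT, and 3 rose and 5 fell of 16 in SkM, beside 33.4% and 33.5% of all genes. The median log2 fold change of those lists for the main effect was -0.17 in BAT and 0.063 in SkM, beside -4.7e-04 and 0.0042 over all genes.

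Among the other genes of acyl-CoA condensation and ketone use, Acat2, a cytosolic thiolase, rose with CR against control in BAT (0.60 ± 0.092) and SkM (0.75 ± 0.17). For CREX against EX its rise did not pass in either tissue. In SkM, Acat2 had only 44 to 125 counts, with means of 3.58 CPM in EX and 3.17 in CREX. Hmgcs1, the cytosolic synthase of sterol synthesis, fell as a main effect in BAT (-0.78 ± 0.17) and SkM (-0.28 ± 0.087). Aacs, which activates acetoacetate in the cytosol for lipid synthesis and is thus a second way of using it, rose as a main effect by 0.98 ± 0.15 in BAT and 1.25 ± 0.38 in SkM. In BAT, Aacs rose from 103 ± 22.4 CPM (SD, n = 3) in control to 233 ± 36.4 (n = 4) in CR, while Oxct1 fell. In SkM, Aacs was at 1.08 to 10.8 CPM, or 24 to 267 counts. Bdh2, a cytosolic dehydrogenase with a proposed part in ketone use, fell in SkM as a main effect by 0.98 ± 0.28. It had only 3 to 14 counts there, or 0.124 to 0.636 CPM. Acat3, a cytosolic relative of Acat2, rose in BAT as a main effect by 0.63 ± 0.22.

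Among the transport genes, Slc16a3, which encodes the lactate exporter MCT4 of glycolytic fibres, did not pass for CR in either tissue (main effects of 0.023 ± 0.49 in BAT and 0.15 ± 0.11 in SkM). It had only 5 to 86 counts in BAT. In control mice it was at 208 ± 16.1 CPM (SD, n = 4) in SkM and 0.467 ± 0.19 CPM (n = 3) in BAT, the reverse of Slc16a1, at 30.4 ± 3.98 and 157 ± 18.2 CPM in the same scaling. Bsg encodes basigin, the chaperone that carries MCT1 and MCT4 to the membrane, and rose in SkM as a main effect by 0.41 ± 0.15 (adjusted p = 0.0444). It did not pass in BAT (0.042 ± 0.052). Emb, which encodes embigin, the partner of MCT2, fell in BAT as a main effect by 0.90 ± 0.27, at 6 to 46 counts. Slc16a6, which encodes a transporter with a part in 3-hydroxybutyrate export from liver, passed no CR comparison in either tissue, at 12 to 36 counts in BAT.

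Among receptors, Hcar1, the lactate receptor, fell in BAT as a main effect of CR by 0.65 ± 0.23 (adjusted p = 0.0458). Its means were 39.8 CPM in control and 19.5 in CR, but 46.5 in EX and 38.4 in CREX, with overlapping ranges within each pair. Hcar2, the receptor for 3-hydroxybutyrate and niacin, did not pass. Among regulators, Esrra, an orphan nuclear receptor of oxidative metabolism, rose with CR against control in BAT (0.34 ± 0.064, adjusted p = 0.00542) and fell in SkM (-0.34 ± 0.098, adjusted p = 0.0435), and the difference of 0.68 ± 0.11 passed its own test (adjusted p = 0.00174). Sirt3, the mitochondrial deacetylase, fell in SkM (-0.69 ± 0.13, adjusted p = 0.00585), where Bdh1 and Oxct1 fell as well, and did not pass in BAT, with a difference of 0.68 ± 0.14 between tissues (adjusted p = 0.00901). Ppara (-0.78 ± 0.21) and Ppargc1a (-0.82 ± 0.28) fell in BAT as main effects of CR, and Cpt1b, the muscle and brown fat form of the enzyme that admits fatty acids to mitochondria, fell in both tissues (-0.19 ± 0.063 in BAT and -0.54 ± 0.11 in SkM). Cpt1a fell in BAT by 0.29 ± 0.097 and Pdk4, which spares pyruvate, rose in SkM by 0.75 ± 0.27. Several of these calls depended on the setting. The main effect of CR was kept in 7 of 22 alternatives for Ppargc1a and for Hcar1 in 8 for Acat3 and in 12 for Cpt1a and for Cpt1b in BAT, and in 7 of 21 for Pdk4, 8 for Bsg, 15 for Aacs and 16 for Hmgcs1 in SkM, and the fall of Esrra in SkM with CR against control was kept in 6 of 14. For EX against control, 0 of 17 other pathway genes in BAT and 0 of 15 in SkM passed edgeR's test. At an unadjusted p under 0.05 there were 6 and 4, beside 972 of 13407 and 884 of 12907 of all genes. DESeq2 called 2 and 0, with no share over all genes given here.

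**Figure D4:**
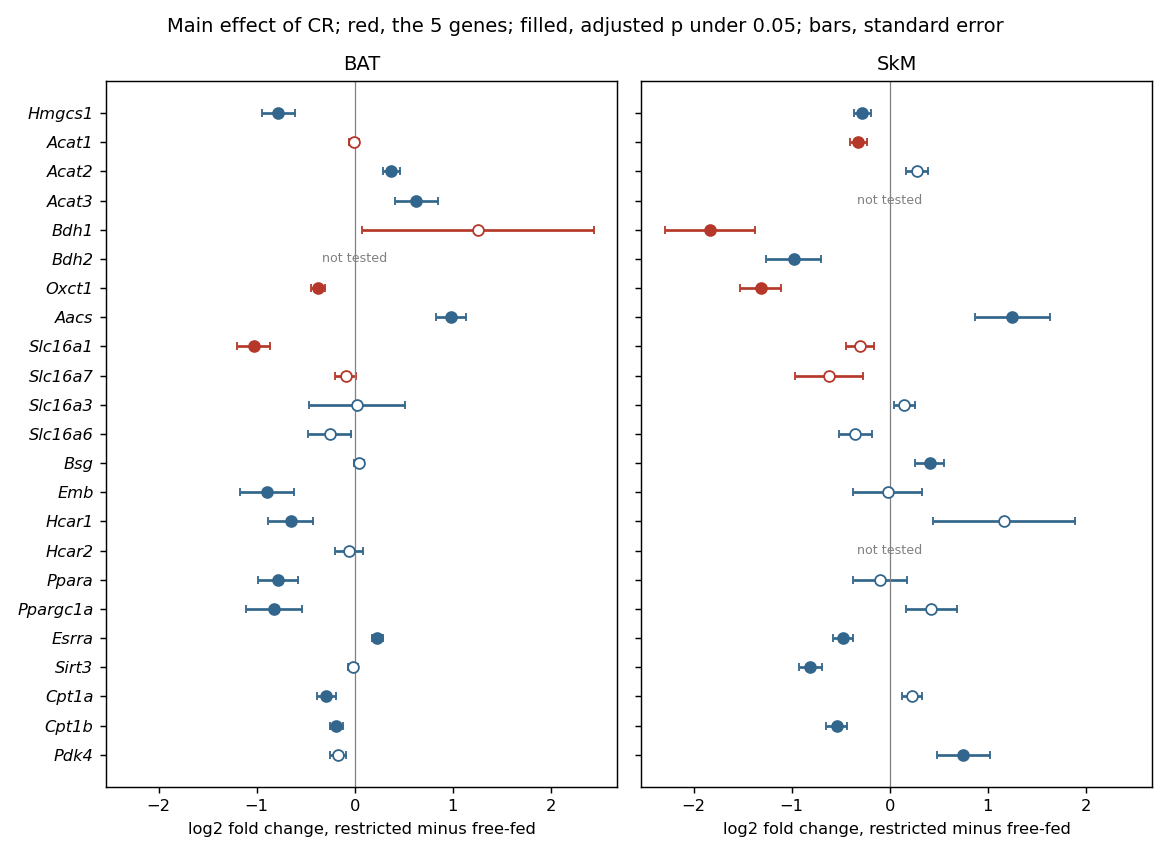
Main effect of CR (log2 fold change of restricted minus freely fed groups) with its standard error for the 5 genes (red) and the other pathway genes tested (blue), in BAT and SkM; filled symbols passed an adjusted p under 0.05. Aacs lies above 0 and Oxct1 below 0 in both tissues, and Bdh1 lies lowest in SkM.

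Likeness of pattern was measured within each tissue, with no test. Pearson's r of log2(CPM + 1) was 0.94 between Bdh1 and Oxct1 (Spearman's rho 0.91), 0.93 between Bdh1 and Acat1 and 0.83 between Acat1 and Oxct1 over 14 SkM libraries, and 0.26 between Acat1 and Oxct1 and 0.64 between Oxct1 and Slc16a1 over 15 BAT libraries. These libraries share the diet groups. Without CREX replicates 2 and 3, over 12 SkM libraries, the same 3 SkM pairs had r of 0.92, 0.81 and 0.60. For Oxct1 and Slc16a1 in SkM, r was 0.71 over 14 libraries and 0.78 over these 12. The most alike genes below were taken over all 14. The genes most like Bdh1 in SkM were Fndc5 (r = 0.99), Acadvl (0.98) and Esrrb (0.98), and those most like Oxct1 were Stard7 (0.99), Lynx1 (0.99) and Mtfr1 (0.99). Those most like Acat1 were Pdlim1 (0.97), Nudt7 (0.96) and Etfa (0.96), and those most like Slc16a1 were Lyrm7 (0.91), Wls (0.89) and Parvb (0.89). In BAT, Slc16a1 was closest to Dtx2 (0.96), Gtf2ird1 (0.95) and 5930403L14Rik (0.95), Oxct1 to Itpr2 (0.93), Rgs5 (0.92) and Cdh2 (0.92), Acat1 to Bphl (0.88), Pcca (0.87) and Adhfe1 (0.84), and Slc16a7 to Nlk (0.85), Exosc10 (0.81) and Kdm5c (0.81).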

How the data were processed

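Total RNA was extracted from BAT and gastrocnemius, and cDNA libraries were sequenced as paired reads. Per the study's methods and the submitters' processing notes, the authors trimmed reads with Trim Galore, aligned them to mm10 with STAR 2.7.10a and deposited RSEM expected counts per gene symbol. The notes name RSEM 1.2.28 and the methods another version, the command in the methods sets no strand option, the annotation is not given in the sources used here, and RSEM divides reads shared between genes. Expected counts were rounded to whole numbers, which moved none of the 5 genes by more than 0.19 counts.

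Groups came from the sample labels. Each comparison used edgeR 4.0.16 (R 4.3.3; TMM factors, filterByExpr, robust quasi-likelihood test) on its own groups, and main effects and interactions used 1 fit per tissue. P-values were adjusted by Benjamini-Hochberg over all genes tested, and the 17 comparisons were not adjusted together. A floor of 3 counts stands for a count of 0 and covers counting error only. Exon lengths came from GENCODE GRCm38 and sequences from RefSeq. The 2 symbols that occur more than once and 27 date-like symbols include none of the genes described. The scripts were tested on simulated data. DESeq2 1.42.0, other scaling and filters, a replicate block, marker covariates and leaving out each library were tried as alternatives. Named genes were the 5 members throughout, other pathway genes that passed a test with Bsg and Slc16a3 always (some pathway genes are not reported here and are left out of the counts), and the 3 genes of highest Pearson r for each member among genes with a median of at least 5 CPM. The members and lists were chosen with earlier results of these data known.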

Additional observations from a re-analysis of the deposited data

Results flagged for a closer look

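In BAT, 2 libraries stood far from the rest of their group of 4, by the gap to the nearest library as a share of the group's range (critical value 0.829, over 25 groups, where chance alone flags about 1 group in 20). Bdh1 was at 2.98 CPM in CREX replicate 3, the BAT library with the highest skeletal muscle sum (6832 CPM), with a gap ratio of 0.982. Slc16a1 was at 214 CPM in EX replicate 1, with a gap ratio of 0.938, and without it CREX against EX was -0.45 on the log2 scale.

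The effect of CR in sedentary mice differed between the tissues, as BAT minus SkM on the log2 scale by edgeR's test of the difference, for Slc16a1 (-1.08), Pdk4 (-0.85), Esrra (0.68) and Sirt3 (0.68). In trained mice, the difference for CREX against EX passed for Cpt1a (-0.76), Esrra (0.74) and Sirt3 (0.92). Of these, the CR differences of Slc16a1 and Pdk4 were kept in 5 and 7 of 19 alternatives and those of Esrra and Sirt3 in 19, and the CREX against EX differences of Cpt1a, Esrra and Sirt3 in 7, 8 and 18 of 22. Tissue and the sequencing of its libraries cannot be told apart in these differences.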

How the results depend on the processing

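Of 1434 values of the 5 genes under alternatives, none changed direction once called, 29 lost a call, 28 gained one, and DESeq2 gave 1 no adjusted p. Counts of members that passed moved by over 1.5 times as follows. For CR against control in BAT, 2 became 1 with the replicate block and 1 with a fold above 1.5 also required. For CREX against EX in BAT, 0 became 2 by DESeq2, 1 in 1 fit over all groups, and 0 to 1 leaving out each library (1 without CREX replicate 3). For CR against control in SkM, 2 became 1 in 1 fit over all groups. For CREX against EX in SkM, 1 became 0 with no filter on low counts, 2 by DESeq2, 3 in 1 fit, 0 with the slow fibre score, and 0 to 4 leaving out each library (4 without CREX replicate 1, 0 without any other). Without CREX replicate 1, SkM counts also went from 0 to 1 for CREX against CR (range 0 to 1), 0 to 2 for the EX main effect (range 0 to 2), and 0 to 1 for the interaction (range 0 to 1). For the BAT CR main effect, 2 became 1 with the fold rule. For the SkM CR main effect the moves were smaller, as 3 became 2 with the slow fibre score or the fold rule, and 3 to 4 leaving out each library. For the tissue difference of CR against control, 1 became 2 with RLE factors, 3 by DESeq2, 0 with the replicate block, and 0 to 2 leaving out each library (2 without SkM CR replicate 1). For that of CREX against EX, 0 became 1 by DESeq2, and 0 to 4 leaving out each library (4 without SkM CREX replicate 1). The causes were not tested.

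Within a tissue, not every same-numbered pair of libraries deviated together (mean r from -0.30 to 0.15 over the 8 pairs of groups, single pairs from -0.47 to 0.50), so the numbers were not taken as pairing, which was not checked between BAT and SkM. The replicate block changed no other count by over 1.5 times. Fits without the muscle-rich BAT or slow-fibre-poor SkM libraries, member correlations included, were chosen after seeing the data. Depth limits Bdh1 in BAT and Slc16a7 in SkM and, among the other pathway genes, Bdh2 in SkM and Emb, Slc16a3 and Slc16a6 in BAT. The rest is limited by 3 or 4 libraries a group.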
